A study of Rattus norvegicus with 7 samples.

Results

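Genes that move zinc, iron and copper were described in RNA of crypts from the distal and the proximal colon of the rat. The members were found by gene symbol, under a rule drawn up with earlier results of these data known. The rule held the Slc30a and Slc39a zinc transporter families and the metallothioneins Mt1 to Mt3 with at most 1 lower-case letter behind the number. It also held 21 named genes of iron and copper handling and metal reduction. Of the 16468 genes of the deposited table, 45 matched, which were 10 zinc exporters (Slc30a), 13 zinc importers (Slc39a), 2 metallothioneins, 12 of 13 named iron genes, 4 copper genes and 4 Steap metalloreductases. Ferritin light chain and a further metallothionein carry other spellings in the table (Ftl and Mt2A), so they were not counted as members and are given beside them. Slc39a10 was not analysed here.

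The series set the distal against the proximal colon in rats of the outbred Sprague Dawley strain, 14 weeks old and with no treatment stated in the labels. Crypts, the epithelial pits of the colon wall, were isolated from each region, and the material of 7 rats was pooled for each library. The distal group was 1 RNA library and the proximal group was 1 RNA library, so no spread between rats or preparations could be measured and no test of the regions was made. Chromatin immunoprecipitation gave the other 5 libraries, which were not used. A pooled extract holds every cell type of the preparation, and fewer cells of a type and less RNA per cell cannot be told apart.

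Values are FPKM, fragment counts that the authors divided by transcript length and by the size of the library, and levels of different genes are compared on this scale only. Ratios are log2((distal FPKM + 1)/(proximal FPKM + 1)), positive where the distal library was higher, and the fold given for a single gene is the plain ratio of its FPKM values. Genes were counted as 2-fold or 1.5-fold apart from the ratios with 1 FPKM added. A gene with at least 1 FPKM in 1 library is called measured. All FPKM values summed to 463340 for the distal library and to 412814 for the proximal library, and no source used here gives read numbers. Distal crypts and proximal crypts below stand for these 2 libraries. Epithelial markers, such as Epcam and Krt8, were abundant, with the 7 listed genes in the table between 67.5 and 3825 FPKM in distal crypts and between 39.1 and 2629 FPKM in proximal crypts. For T cells the 5 markers summed to 9.53 FPKM in distal crypts and 10.8 FPKM in proximal crypts, and for B cells the 4 markers in the table summed to 1.22 FPKM in distal crypts and 24.6 FPKM in proximal crypts.

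Zinc, iron and copper are cofactors of many enzymes and are toxic in excess, so cells balance their entry, storage and exit with dedicated carriers. Dietary iron is reduced at the brush border, enters the enterocyte, is stored in ferritin or leaves across the basolateral membrane through ferroportin, which the liver hormone hepcidin removes from the membrane. Slc39a carriers raise cytosolic zinc and Slc30a carriers lower it, while metallothioneins, small cysteine-rich proteins, bind zinc and copper in the cytosol. Most dietary iron and zinc is taken up in the small intestine, and the same carriers are also expressed in the colon.

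Most of these genes stood at much the same level in both regions. Of the 45 members, 34 were measured, and 27 of these differed by less than 1.5-fold (79.4%, against 82.7% of all 9847 measured genes). At least 2-fold higher in distal crypts were 3 of the 34, namely the iron exporter Slc40a1, the ferric reductase Cybrd1 and the metallothionein Mt1a, which is 8.82% beside 3.71% of all measured genes. Mt3 was past 2-fold as a plain ratio but not with 1 FPKM added. None was at least 2-fold higher in proximal crypts, beside 3.91% of all measured genes. The median log2 ratio of the 34 was 0.036, beside 0.094 for all measured genes. Of all 9847 measured genes, 6044 were higher in distal and 3803 in proximal crypts as deposited. Counts of direction as deposited stand beside that share below. For counts after rescaling the share of all measured genes was not taken. Only Mt3 reached the 1 FPKM minimum in 1 library alone. The counts describe the members that passed the minimum and are too small to set them apart from other genes.

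The authors' deposited table tested 38 of the members and called 1 of them, Slc40a1, higher in the distal library, which is 2.63% beside 2.73% of all rows that it tested. It called none higher in the proximal library, beside 2.69% of all tested rows. An unadjusted p-value under 0.05 stood in the authors' deposited table for 4 of the 38 members, which is 10.5% beside 12.3% of all tested rows. They were Slc40a1, Cybrd1, Mt1a and Slc39a14.

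**Figure D1:**
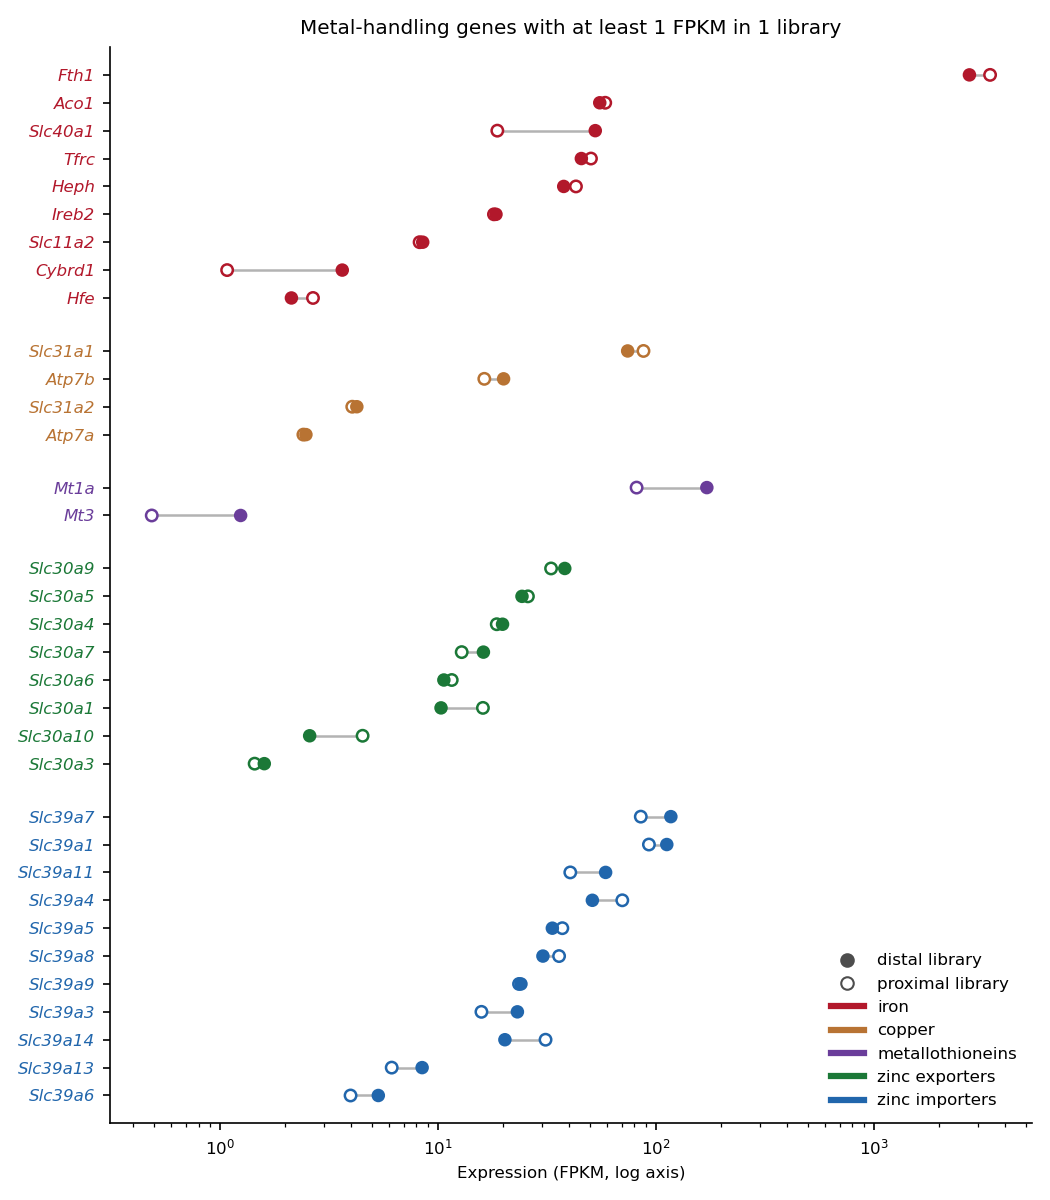
Expression of the 34 measured members in FPKM on a log axis, with a filled point for the distal and an open point for the proximal library and 1 row per gene, coloured by group. Most point pairs nearly coincide, while Slc40a1 (distal 52.9 and proximal 18.8 FPKM), Cybrd1 (distal 3.65 and proximal 1.08 FPKM), Mt1a (distal 172 and proximal 81.8 FPKM) and Mt3 (distal 1.25 and proximal 0.488 FPKM) lie apart.

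Among the iron genes, Slc40a1 and Cybrd1 stood more than 2-fold above their proximal level in distal crypts. The other 7 measured genes, among them the ferroxidase gene Heph, were less than 1.5-fold apart. Slc40a1 encodes ferroportin, the iron exporter of the basolateral membrane, and stood at 52.9 FPKM in distal crypts and 18.8 FPKM in proximal crypts, a fold of 2.81. In the authors' deposited table its log2 fold change was 1.49 (implied standard error 0.30) with a q-value of 6.13e-05. By level it was the third of the 9 measured iron genes in the distal library and the fifth in the proximal library. In the rn4 build the gene lies on chromosome 9, from 44977430 to 44995358, and shares its locus with no other gene of the table.

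Ferroportin is also a gene of iron-recycling macrophages, so myeloid markers are given beside it. The 12 listed markers summed to 20.8 FPKM in distal crypts and 38.9 FPKM in proximal crypts. None was at least 2-fold higher in distal crypts, and Lyz2 and Laptm5 were at least 2-fold higher in proximal crypts. Most of the gap between the sums lay in Lyz2 and Laptm5. Laptm5 stood at 4.12 FPKM in distal and 12.5 FPKM in proximal crypts, and Lyz2, which shares its locus, at 2.497 and 11.1 FPKM. C1qc was higher in distal crypts, at 4.62 against 2.97 FPKM. C1qa stood at 3.57 FPKM in distal and 3.72 FPKM in proximal crypts, and C1qb at 2.15 and 3.08 FPKM. A macrophage part in the Slc40a1 values was not tested. The macrophage markers Cd163 and Emr1 were listed at 0 in both libraries. Slc11a1, a member that encodes the metal transporter of macrophage phagosomes, stood at 0.179 FPKM in distal crypts and 0.0533 FPKM in proximal crypts, both below the level of about 3 reads.

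Cybrd1, the ferric reductase of the duodenal brush border, stood at 3.65 FPKM in distal crypts and 1.08 FPKM in proximal crypts, a fold of 3.37. Its log2 fold change in the authors' deposited table was 1.76 (implied standard error 0.60) with a q-value of 0.0572 and no call. Adding 1 FPKM to both values gave it a log2 ratio of 1.16 and adding 5 FPKM gave 0.51, so at this low level the size depends on the pseudocount. Slc11a2, the importer that carries the reduced iron across the apical membrane, stood at 8.55 FPKM in distal crypts and 8.27 FPKM in proximal crypts. The reductase and the importer were thus both below 10 FPKM in both libraries, under the ferroportin level.

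Storage and ferroxidase genes were near equal. Fth1, the ferritin heavy chain, which oxidises iron for storage, stood at 2754 FPKM in distal crypts and 3426 FPKM in proximal crypts. It ranked 9 among all genes of the distal library and 3 among those of the proximal library, and it made up 92.4% of the summed FPKM of the iron members in distal crypts and 94.4% in proximal crypts. Ftl, the ferritin light chain, stood at 116 FPKM in distal crypts and 122 FPKM in proximal crypts. Ferritin genes have processed copies in the genome that share their reads, so the levels of both chains and the gap between them are uncertain. Heph, hephaestin, the copper-dependent ferroxidase that works beside ferroportin, stood at 37.9 FPKM in distal crypts and 43.1 FPKM in proximal crypts. For Heph the log2 fold change in the authors' deposited table was -0.19 (implied standard error 0.30), without a call.

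Genes of iron uptake from blood and of iron sensing also stood close together. Tfrc, the receptor that takes up transferrin-bound iron, stood at 45.7 FPKM in distal crypts and 50.5 FPKM in proximal crypts. Aco1, which encodes the cytosolic aconitase that turns into an iron regulatory protein when iron is low, stood at 55.5 FPKM in distal crypts and 58.8 FPKM in proximal crypts. Ireb2, the other iron regulatory protein, stood at 18.5 FPKM in distal crypts and 18.1 FPKM in proximal crypts. These proteins bind messenger RNAs of ferritin, Tfrc, Slc11a2 and Slc40a1 and act on their stability or translation, and translation is not measured by RNA-seq.

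Members of the hepcidin axis were low. Hfe, a regulator of hepcidin, stood at 2.13 FPKM in distal crypts and 2.68 FPKM in proximal crypts, and it shares its locus in the table with histone and other genes. Hamp, hepcidin itself, stood at 0.879 FPKM in distal crypts and 0.513 FPKM in proximal crypts. Tfr2, an iron sensor of the liver, was listed at 0 in the distal library and at 0.0313 FPKM in the proximal library. The p-value of its row was the one that marks a single read, and no ratio is given for these levels.

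All 4 copper genes were less than 1.5-fold apart, 3 of them higher in distal crypts and 1 in proximal crypts as deposited, against 1 in distal crypts and 3 in proximal crypts after distal values were scaled to put the median ratio of all measured genes at 0 on the log2 scale. Slc31a1, the high-affinity copper importer, was the highest of them, at 74.5 FPKM in distal crypts and 88.0 FPKM in proximal crypts. Its relative Slc31a2, which sits in endosomes and lysosomes, stood at 4.26 FPKM in distal crypts and 4.06 FPKM in proximal crypts. Copper leaves the cell through ATP-driven pumps, of which Atp7a is known as the exporter of the small intestine and Atp7b from the liver. Atp7b stood at 20.1 FPKM in distal crypts and 16.4 FPKM in proximal crypts, and Atp7a at 2.49 FPKM in distal crypts and 2.42 FPKM in proximal crypts. The level of Atp7b was above that of Atp7a in both regions, and the order of all 4 levels was the same. The largest deposited log2 fold change among them in size, 0.29 for Atp7b, had an implied standard error of 0.29.

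The Steap metalloreductases, which reduce iron and copper, were under 1 FPKM in both libraries in all 4 cases. Steap2 stood at 0.913 FPKM in distal crypts and 0.698 FPKM in proximal crypts, and Steap1 at 0.296 FPKM in distal crypts and 0.971 FPKM in proximal crypts. Steap4 was at 0.0248 FPKM in the distal library, with the p-value that marks a single read, and was listed at 0 in the proximal library. Steap3, which has its locus on an unplaced sequence of the rn4 build, was listed at 0 in both libraries.

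Both metallothionein members were higher in the distal library, as deposited and under both rescalings. Mt3 passed the 1 FPKM minimum only through that library, so its direction adds no support to that of Mt1a. Mt1a stood at 172 FPKM in distal crypts and 81.8 FPKM in proximal crypts, a fold of 2.10. Its deposited log2 fold change of 1.07 had an implied standard error of 0.43, and the authors' deposited table made no call at a q-value of 0.157. After scaling the distal library so that all measured genes had a median log2 ratio of 0, or so that the upper quartiles were equal, its log2 ratio was 0.96 or 0.89, under 2-fold. Mt3, the metallothionein best known from brain, stood at 1.25 FPKM in distal crypts and 0.488 FPKM in proximal crypts, and no fold is given, since its transcript is short and such a level rests on few reads.

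Both members lie in a cluster on chromosome 19 with 2 further genes, Mt2A and Mt4, which are outside the rule and were named after their values were seen. The cluster spans 40.5 kb, from 11261631 to 11302153 of the rn4 build. Mt2A, the other widely expressed isoform, stood at 42.0 FPKM in distal crypts and 18.2 FPKM in proximal crypts, a fold of 2.31, with a deposited q-value of 0.433. Mt4, an isoform known from stratified epithelia, stood at 2.37 FPKM in distal crypts and 0.467 FPKM in proximal crypts. All 4 genes of the cluster were higher in the distal library, beside 6044 of all 9847 measured genes. Mt3 and Mt4 were under 1 FPKM in the proximal library and passed the minimum only through the distal library, so their direction adds no support. None of the 4 was called in the authors' deposited table. Mt1a and Mt2A are closely related in sequence and the family has processed copies, so reads may be split between them and neither level is certain alone.

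Metallothionein genes are induced by zinc through metal response elements, short promoter motifs bound by the factor MTF1, and the zinc exporter Slc30a1 is known as another target. The promoters of Mt1a, Mt2A and Slc30a1 are shown because the metallothioneins were higher and the exporter lower in the distal library. The core was searched as TGCACNC and TGCGCNC on both strands in windows of 300 bases, 250 before and 50 after the gene start, in sequences from RefSeq on the GRCr8 build, and matches that overlap were counted separately. Each line gives the 250 bases before the start in the direction of the gene, with the matches in capitals; a match on the other strand reads as the reverse complement. The Mt1a window lies at chr19:10832976-10833225 on the minus strand, where RefSeq calls the gene Mt1, that of Mt2A at chr19:10838709-10838958 on the minus strand, and that of Slc30a1 at chr13:106021769-106022018 on the plus strand.
Mt1a: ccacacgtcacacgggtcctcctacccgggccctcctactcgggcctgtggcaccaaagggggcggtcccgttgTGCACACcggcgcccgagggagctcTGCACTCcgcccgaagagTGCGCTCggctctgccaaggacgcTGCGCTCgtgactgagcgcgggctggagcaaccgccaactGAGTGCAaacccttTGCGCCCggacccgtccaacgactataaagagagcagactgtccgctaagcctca
Mt2A: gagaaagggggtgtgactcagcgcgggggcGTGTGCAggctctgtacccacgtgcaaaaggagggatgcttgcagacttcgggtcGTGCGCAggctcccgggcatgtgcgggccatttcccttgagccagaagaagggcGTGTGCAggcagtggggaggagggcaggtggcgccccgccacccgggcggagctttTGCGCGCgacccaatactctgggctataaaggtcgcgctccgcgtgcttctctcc
Slc30a1: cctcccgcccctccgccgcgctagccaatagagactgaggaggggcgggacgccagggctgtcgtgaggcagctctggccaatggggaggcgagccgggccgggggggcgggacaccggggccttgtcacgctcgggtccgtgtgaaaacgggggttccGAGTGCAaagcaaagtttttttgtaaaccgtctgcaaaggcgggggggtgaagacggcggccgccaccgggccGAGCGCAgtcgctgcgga

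Mt1a had 6 matches in its window, Mt2A had 4 and Slc30a1 had 2. Slc30a1 did not stand out among the members: Tfrc, Steap1, Mt3, Slc30a2 and Slc30a4 held 3, and Slc30a5, Slc39a11 and Slc39a13 held 2. The share of all windows with at least 2 was not taken. Of all 33469 promoter windows in the table, 24.2% held at least 1 match, 0.439% at least 4 and 0.0388% at least 6. Of the 45 members 37 had a window, and 16 of these (43.2%) held at least 1 match. A member with more than 1 window counts by its highest window, whereas the shares of all windows count each window. With at least 4 matches there were Mt1a and Slc39a7, and of the 4 matches in Slc39a7 2 overlap. Slc40a1 and Cybrd1 held none of these letters in their windows. A match is a run of letters and was not tested as a site. Mtf1 itself stood at 7.00 FPKM in distal crypts and 5.79 FPKM in proximal crypts.

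Metallothioneins are also known to respond to glucocorticoids and to stress, so genes of these responses are given beside them. The 5 listed glucocorticoid-induced genes summed to 215 FPKM in distal crypts and 96.3 FPKM in proximal crypts. Most of both sums was Sgk1, at 133 FPKM in distal and 73.9 FPKM in proximal crypts, and Tsc22d3, at 69.2 and 9.27 FPKM. Per1 stood at 9.17 FPKM in distal and 8.11 FPKM in proximal crypts, and Fkbp5 at 3.44 and 5.05 FPKM. Zbtb16 stood at 0.766 FPKM in distal crypts and was listed at 0 in proximal crypts. The 8 immediate early and heat shock genes in the table summed to 940 FPKM in distal crypts and 509 FPKM in proximal crypts. Fos, Jun and Atf3, 3 of the 8, were at least 2-fold higher in distal crypts, beside 3.71% of all measured genes. Junb, Ier2 and the heat shock gene Dnajb1 were higher there by less than 2-fold. Egr1 stood at 30.1 FPKM in distal and 31.7 FPKM in proximal crypts, and the heat shock gene Hspa1b at 3.95 FPKM in distal and 4.65 FPKM in proximal crypts. None of the 5 and none of the 8 was at least 2-fold higher in proximal crypts. The part of these responses in the metallothionein values was not tested.

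**Figure D2:**
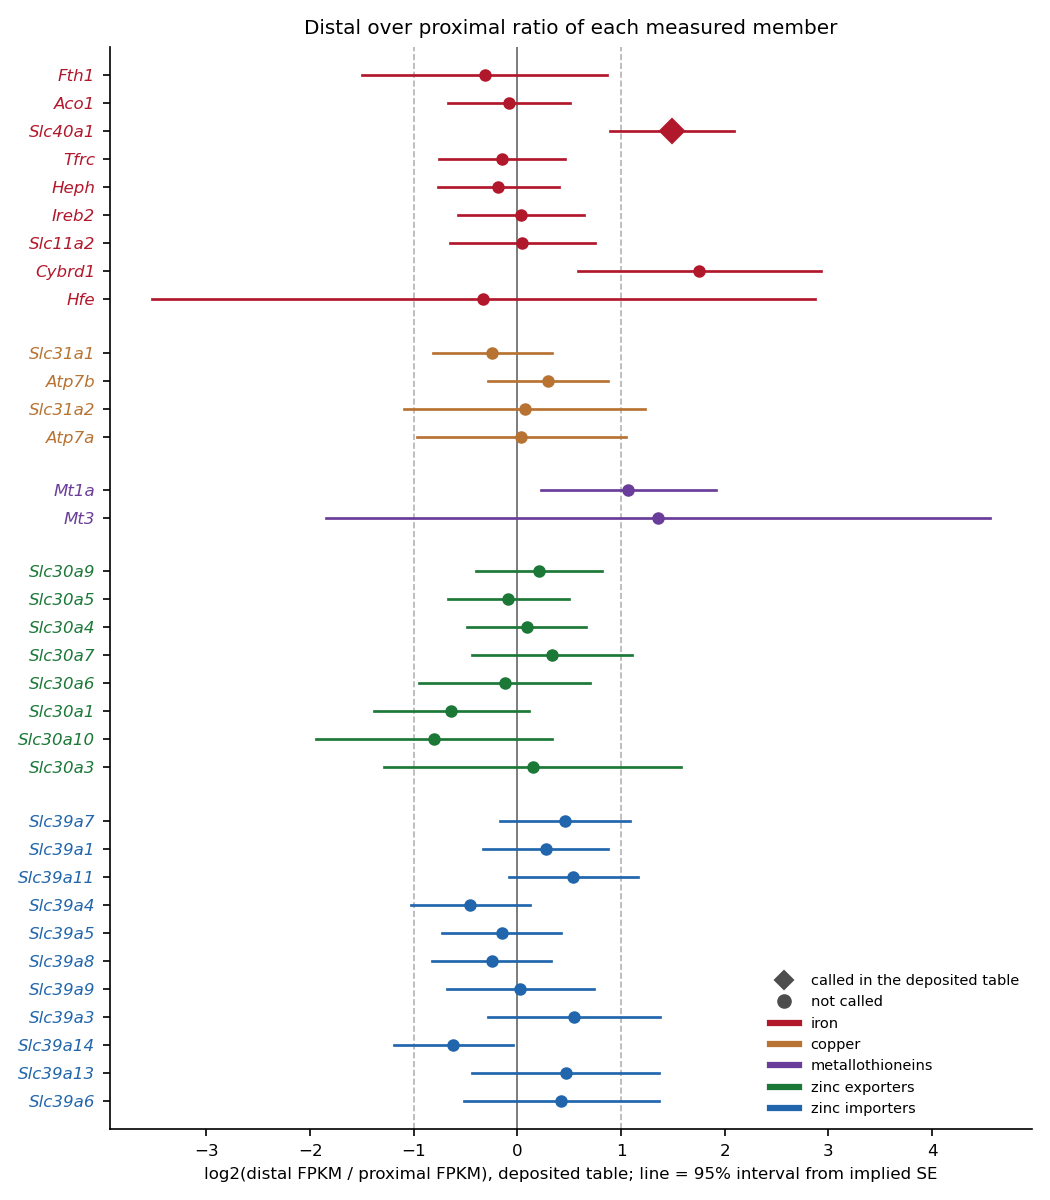
Deposited log2 ratio of distal over proximal FPKM for the 34 measured members, with lines for the 95% interval from the implied standard error, dashed lines at 2-fold and a diamond for the member called in the deposited table. Slc40a1, Cybrd1 and Mt1a lie to the right of 0 with their whole line and Slc39a14 to the left of it, and the lines of the other 30 members cross 0.

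Zinc exporters were balanced between the regions as deposited, with 4 of the 8 measured genes higher in distal crypts and 4 in proximal crypts, against 2 in distal crypts and 6 in proximal crypts once the distal library was rescaled to equal upper quartiles. Their median log2 ratio was -0.0015. Slc30a1, the exporter of the plasma membrane, stood at 10.4 FPKM in distal crypts and 16.1 FPKM in proximal crypts, a fold of 1.56 with the proximal library higher. Slc30a10, known in humans and mice as a manganese exporter, stood at 2.59 FPKM in distal crypts and 4.53 FPKM in proximal crypts, a fold of 1.75 in the same direction. In the authors' deposited table their log2 fold changes were -0.64 and -0.81, with implied standard errors of 0.38 and 0.58, and neither was called.

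Exporters of organelles held the 3 highest levels in both libraries. Slc30a9, which carries zinc out of mitochondria, was the highest in both libraries, at 38.3 FPKM in distal crypts and 33.2 FPKM in proximal crypts. Slc30a5 and Slc30a6 form a heterodimer that fills the early secretory pathway with zinc, and Slc30a5 stood at 24.4 FPKM in distal crypts and 26.0 FPKM in proximal crypts. Slc30a6 stood at 10.7 FPKM in distal crypts and 11.6 FPKM in proximal crypts. The partners were alike in that neither was 1.5-fold apart between the regions. Slc30a7, a carrier of the Golgi, stood at 16.2 FPKM in distal crypts and 12.9 FPKM in proximal crypts, and Slc30a4, a carrier of endosomes, at 19.9 FPKM in distal crypts and 18.7 FPKM in proximal crypts.

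Exporters known from specialised secretory vesicles were low. Slc30a3, the carrier of synaptic vesicles, stood at 1.60 FPKM in distal crypts and 1.45 FPKM in proximal crypts. Slc30a8, the carrier of insulin granules, stood at 0.817 FPKM in distal crypts and 0.978 FPKM in proximal crypts, and Slc30a2, known from mammary gland and other secretory cells, at 0.140 FPKM in distal crypts and 0.223 FPKM in proximal crypts.

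Zinc importers were the most abundant zinc carriers, with a median log2 ratio of 0.27 over the 11 measured genes, 7 of them higher in distal crypts, 4 in proximal crypts and none 2-fold apart, while either rescaling left 6 higher in distal crypts and 5 in proximal crypts. The highest were Slc39a7, which releases zinc from the endoplasmic reticulum and Golgi, at 118 FPKM in distal crypts and 85.5 FPKM in proximal crypts, and Slc39a1, an importer of the plasma membrane, at 113 FPKM in distal crypts and 93.2 FPKM in proximal crypts. Their order differed between the regions, Slc39a7 standing first in distal and Slc39a1 in proximal crypts. Slc39a11 stood at 59.0 FPKM in distal crypts and 40.6 FPKM in proximal crypts, and Slc39a3, a plasma membrane importer, at 23.2 FPKM in distal crypts and 15.9 FPKM in proximal crypts. These were the widest gaps on the distal side among the importers, folds of 1.45 and 1.46, and their deposited log2 fold changes of 0.54 and 0.55 had implied standard errors of 0.32 and 0.42.

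The remaining importers on that side were lower in level or closer to equal. Slc39a13, a carrier of the secretory pathway known for its role in connective tissue, stood at 8.49 FPKM in distal crypts and 6.16 FPKM in proximal crypts. Slc39a6 stood at 5.35 FPKM in distal crypts and 3.99 FPKM in proximal crypts. Slc39a9 stood at 24.1 FPKM in distal crypts and 23.6 FPKM in proximal crypts, and its direction turned under both rescalings of the distal library.

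The 4 importers that were higher in the proximal library were Slc39a4, Slc39a5, Slc39a8 and Slc39a14, which are all known to work at the plasma membrane. Slc39a4, the apical zinc importer of the intestine whose loss causes acrodermatitis enteropathica in humans, stood at 51.3 FPKM in distal crypts and 70.4 FPKM in proximal crypts, a fold of 1.37. Slc39a14, a carrier of zinc, manganese and non-transferrin iron, stood at 20.4 FPKM in distal crypts and 31.3 FPKM in proximal crypts, a fold of 1.54. Its deposited log2 fold change was -0.62 with an implied standard error of 0.29, an unadjusted p-value of 0.0349 and a q-value of 0.320 in the authors' deposited table. Slc39a5, a basolateral importer, stood at 33.6 FPKM in distal crypts and 37.4 FPKM in proximal crypts, and Slc39a8, a relative of Slc39a14, at 30.4 FPKM in distal crypts and 36.1 FPKM in proximal crypts. This grouping was made after the values were seen, and plasma membrane carriers Slc39a1 and Slc39a3 went the other way.

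Slc39a2 and Slc39a12 were the importers below 1 FPKM. Slc39a2 stood at 0.559 FPKM in the distal library and was listed at 0 in the proximal library. Slc39a12, known from brain, was listed at 0 in both.

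**Figure D3:**
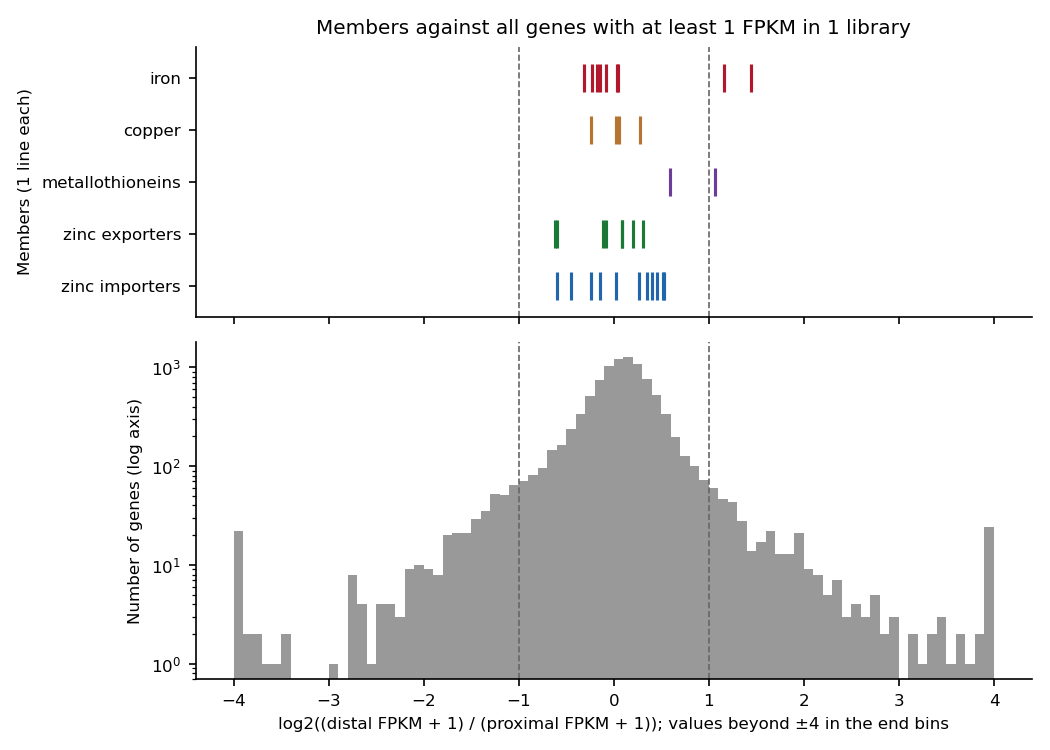
Log2((distal FPKM + 1)/(proximal FPKM + 1)) of the 34 measured members, 1 line each by group (top), above the distribution of the same ratio over all 9847 measured genes on a log count axis (bottom), with dashed lines at 2-fold. The copper and zinc carriers lie within the dashed lines, and 2 iron genes and 1 metallothionein lie to the right of them.

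Directions of members close to 0 depended on how the libraries were scaled. The median log2 ratio of all measured genes was 0.094 as deposited and -0.063 with equal upper quartiles. Over the 34 measured members, 20 were higher in distal crypts and 14 in proximal crypts as deposited, beside 6044 and 3803 of all 9847 measured genes. With equal upper quartiles 13 members were higher in distal crypts and 21 in proximal crypts, without a matching count over all measured genes. The 7 genes that changed direction under a rescaling were Atp7a, Slc31a2, Ireb2, Slc11a2, Slc30a3, Slc30a4 and Slc39a9. Slc40a1, Cybrd1 and Mt1a remained higher in the distal library under both, with log2 ratios of 1.28, 1.03 and 0.89 at equal upper quartiles.

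Other genes of metal, heme and iron-sulfur handling were taken from a list of 46, of which 39 were in the table and 30 were measured. The list was matched by symbol, so Aoc1, spelled Abp1 in the table, is not among the 39 and is given below. At least 2-fold higher in distal crypts with 1 FPKM added were 3 of the 30, beside 3.71% of all measured genes, and 1 was higher in the proximal library, beside 3.91%. Tf, transferrin, the iron carrier of blood plasma, stood at 59.6 FPKM in distal crypts and 12.2 FPKM in proximal crypts, a fold of 4.87. In the authors' deposited table it was the only call among the 39, beside 2.73% of all tested rows called higher in distal and 2.69% in proximal crypts, with a log2 fold change of 2.29 (implied standard error 0.34) and a q-value of 3.71e-09. Some of the 39 were not tested there and could not be called, so the 39 are not all tested rows. The transferrin receptor Tfrc, described above, was less than 1.5-fold apart. Slc46a1, the proton-coupled folate transporter that was also described as a heme carrier, stood at 4.69 FPKM in distal crypts and 1.43 FPKM in proximal crypts, with a deposited q-value of 0.116. Bmp6, a ligand that induces hepcidin in the liver, stood at 6.12 FPKM in distal crypts and 2.32 FPKM in proximal crypts, with a deposited q-value of 0.291. Lcn2, lipocalin 2, which binds bacterial iron carriers, stood at 1.41 FPKM in distal crypts and 5.42 FPKM in proximal crypts, with a deposited q-value of 0.111.

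Regulators of ferroportin and ferritin in that list, Epas1 and Ncoa4, were less than 1.5-fold apart. Epas1, which encodes the hypoxia-inducible factor known to induce Slc40a1, Cybrd1 and Slc11a2 in the small intestine of mice, stood at 49.8 FPKM in distal crypts and 33.3 FPKM in proximal crypts. This put Epas1 just under the 1.5-fold bound, and its deposited log2 fold change was 0.58 (implied standard error 0.29). Ncoa4, the receptor for ferritin breakdown, stood at 44.1 FPKM in distal crypts and 62.8 FPKM in proximal crypts. Its deposited log2 fold change was -0.51 (implied standard error 0.36). The heme oxygenase Hmox1 stood at 2.80 FPKM in distal crypts and 1.34 FPKM in proximal crypts, past 2-fold as a plain ratio alone, and Hmox2 at 38.5 FPKM in distal crypts and 34.0 FPKM in proximal crypts.

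Copper chaperones and cuproenzymes matched by symbol were less than 1.5-fold apart in all 8 measured cases, with a median log2 ratio of -0.022. Aoc1, a copper amine oxidase on the list, is spelled Abp1 in the table and was left out of these values. It stood at 139 FPKM in distal crypts and 324 FPKM in proximal crypts, a log2 ratio of -1.21, past 2-fold. Sod1, the copper-zinc superoxide dismutase, stood at 269 FPKM in distal crypts and 300 FPKM in proximal crypts. Its copper chaperone Ccs stood at 49.5 FPKM in distal crypts and 35.1 FPKM in proximal crypts. Atox1, the chaperone that hands copper to the Atp7 pumps, stood at 73.6 FPKM in distal crypts and 71.9 FPKM in proximal crypts, and Cox17, which serves cytochrome oxidase, at 204 FPKM in distal crypts and 216 FPKM in proximal crypts.

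**Figure D4:**
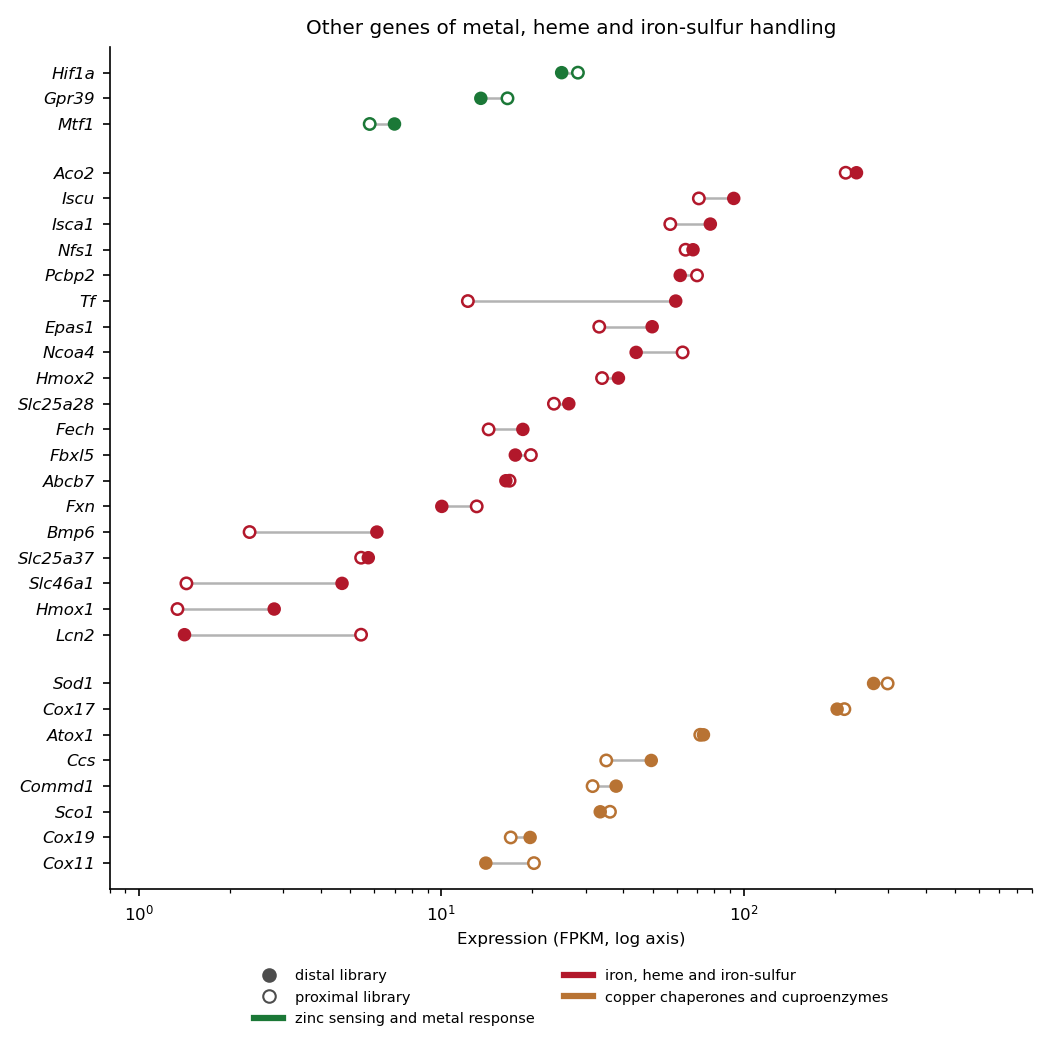
Expression of the 30 measured genes of the list of other metal, heme and iron-sulfur genes in FPKM on a log axis, with a filled point for the distal and an open point for the proximal library. Tf (distal 59.6 and proximal 12.2 FPKM), Slc46a1 (distal 4.69 and proximal 1.43 FPKM), Bmp6 (distal 6.12 and proximal 2.32 FPKM) and Lcn2 (distal 1.41 and proximal 5.42 FPKM) are the genes of these 30 at least 2-fold apart with 1 FPKM added to both values. Aoc1, spelled Abp1 in the table, is not shown.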

How the data were processed

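Expression values of colon crypts came from 1 distal and 1 proximal RNA library, each pooled from 7 rats per the labels, and groups followed the sample titles. Per the submitters' processing notes, CASAVA, TopHat2 and the rn4 build go with these samples, with no versions given. The deposited table holds FPKM values of the authors, taken as such because they are not whole and differ in sum, and no source used here says how the libraries were scaled to each other. It also holds the authors' log2 fold change, test statistic, p-values and q-values. The statistic has the opposite sign to the fold change in the table, and its two-sided normal tail equals the deposited p-value to within 2.76e-06, so the size of the fold change over the statistic was taken as the implied standard error. That error comes from the model behind the table and does not measure variation between rats. Its median was 0.67 on the log2 scale for genes of 1 to 5 FPKM, 0.42 for 5 to 20 FPKM and 0.31 above.

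Of 16492 rows, 23 marked as low in data or failed and 1 repeated row were left out. Starts were raised by 1, since 1185 of 1186 short olfactory receptor loci then had a length in multiples of 3. The commonest p-value among rows at 0 in the other library, 0.169 for the distal and 0.149 for the proximal library, was taken to mark a single read. From olfactory receptor genes of about 942 bases, 3 reads stood near 0.339 FPKM in distal crypts and 0.426 FPKM in proximal crypts. Folds are left out where the lower value was under 0.426 FPKM, and for short transcripts near it.

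Ratios used a pseudocount of 1 FPKM, which understates differences of low genes, and a minimum of 1 FPKM in 1 library. There was no test of the regions. Every measured member is named with its values, and of the other lists those genes at least 2-fold apart or called, with some further examples. Members and lists were chosen with earlier results of these data known. The ratio was checked on simulated data with known folds. Symbols were matched to RefSeq (GRCr8) by current or older name for promoters. Python 3.11.15, pandas 2.3.3, NumPy 2.4.6, SciPy 1.17.1 and matplotlib 3.10.9 were used.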

Additional observations from a re-analysis of the deposited data

How the results depend on the processing

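Each of the 34 measured members was recomputed with pseudocounts of 0.1 and 5 FPKM and with 2 rescalings of the distal library. In all 136 cases the log2 ratio moved by less than the half-width of its 95% interval from the implied standard error. The rescalings multiplied distal values by 0.932 or 0.888 and the smallest implied standard error was 0.29, so those cases could not come out otherwise. With a pseudocount of 5 FPKM, Cybrd1 went from 1.16 to 0.51 and Mt3 from 0.60 to 0.19. Their implied standard errors were 0.60 and 1.64, so the check does not show that these ratios are stable. The count at 2-fold on the distal side lay between 2 and 4 under the alternatives, being 2 with either rescaling (Slc40a1 and Cybrd1) and 2 with a pseudocount or a minimum of 5 FPKM (Slc40a1 and Mt1a). At 1.5-fold 4 members were higher distally and 3 proximally, against 3 distally and 0 proximally at 2-fold. With the distal library rescaled to a median log2 ratio of 0, the median of all measured members was -0.047 (0.036 as deposited), that of copper genes -0.035 (0.042 as deposited), that of zinc importers 0.17 (0.27 as deposited) and that of iron genes -0.18 (-0.082 as deposited). With equal upper quartiles these medians were -0.10, -0.087, 0.10 and -0.25, zinc exporters stood at -0.16 (-0.0015 as deposited) and metallothioneins at 0.70 (0.83 as deposited). For the 2 metallothioneins the median was 1.13 when the pseudocount was 0.1 FPKM and 0.61 when it was 5 FPKM. A minimum of 5 FPKM leaves Mt1a alone, at 1.06. A median was taken to move at 0.1 on the log2 scale. Leaving out Hfe, which shares its locus, or rows not tested in the deposited table changed neither count. The Steap genes gave no median, since none reached 1 FPKM. Leaving out a replicate could not be done with 1 library per region. No paired analysis was possible because each region had 1 library. Differences could not be judged for Slc11a1, Slc30a2, Slc39a12, Steap3, Steap4 and Tfr2, which were under 0.426 FPKM in both libraries. That level stands for about 3 reads only in genes of about 942 bases.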

Other observations

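Hemoglobin genes, known from red blood cells and their precursors, were present in both libraries. Hba-a2 stood at 101 FPKM in distal crypts and 56.3 FPKM in proximal crypts, and Hbb at 60.2 FPKM in distal crypts and 38.9 FPKM in proximal crypts. Of the 6 listed goblet cell markers, 3 (Clca1, Fcgbp and Tff3) were at least 2-fold higher in distal crypts and 1 (Spink4) in proximal crypts, and the 6 summed to 7323 FPKM in distal crypts and 3362 FPKM in proximal crypts. Tff3 stood at 1618 FPKM in distal crypts and 438 FPKM in proximal crypts, and Spink4 at 68.0 FPKM in distal crypts and 236 FPKM in proximal crypts. No metal-handling gene was compared within these cell types, since the libraries are pooled extracts.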
